A study of Homo sapiens with 8 samples.

Results

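The 8 libraries of the series fell into 2 sets in expression, replicates 3 and 4 of both treatments (4 of the 8 libraries) against replicates 1 and 2 (the other 4). The division is not in the labels: the sets were chosen by the expression values themselves, and the genes that follow it are described here with treatment held apart. Because the same values showed the division, differences between the sets are given as descriptions with no p-value. SV-HUC1 is an established human urothelial cell line, derived from normal ureter and immortalised with SV40, so every library carries the viral oncogene and comes from 1 line. Controls were untreated, and treated cultures received 20 mU per ml of glucose oxidase, whose reaction with glucose yields hydrogen peroxide, during 24 h. All cultures were grown in a mixture of advanced DMEM and F12 with fetal bovine serum and GlutaMAX, and all libraries came from total RNA. The design text speaks of independent experiments without tying equal replicate numbers to 1 experiment, so a set, a pair of replicate numbers and any unrecorded difference in handling cannot be told apart.

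Some of the lead genes of the sets belong to a few well known programmes, and many do not. When cell sterol falls, the factor SREBP2 leaves the endoplasmic reticulum and turns on the enzymes of the mevalonate pathway. In the integrated stress response, amino acid shortage, unfolded protein in the endoplasmic reticulum or oxidative damage slows translation through eIF2alpha, and the factor ATF4 then turns on amino acid synthesis, transport and tRNA charging. Heat shock chaperones fold and refold proteins under the factor HSF1. In urothelium, sterol-rich apical membranes and a stratified keratin network form the barrier to urine.

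Promoter sequences are shown for 6 genes at the ends of the range: HMGCS1 and INSIG1 from those higher in replicates 3 and 4, CREB5 and ECM2 from those lower, and CHAC1 and ASNS, lower members of the ATF4 list whose promoters hold the ATF4 element. The last pair was chosen after their values and sequences were seen. Each is the 250 bases before a transcription start in RefSeq on GRCh38.p14, written 5′ to 3′ along the gene's strand. Capitals mark a CCAAT box (CCAAT, or ATTGG where it lies on the other strand) or an ATF4 element (TGATGNAA on either strand).
HMGCS1, chr5:43313413-43313662, minus strand: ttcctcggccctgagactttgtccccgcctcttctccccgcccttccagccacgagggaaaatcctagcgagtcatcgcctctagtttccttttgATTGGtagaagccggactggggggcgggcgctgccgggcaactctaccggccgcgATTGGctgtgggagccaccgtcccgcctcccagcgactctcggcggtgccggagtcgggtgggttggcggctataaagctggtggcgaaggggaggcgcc
INSIG1, chr7:155297628-155297877, plus strand: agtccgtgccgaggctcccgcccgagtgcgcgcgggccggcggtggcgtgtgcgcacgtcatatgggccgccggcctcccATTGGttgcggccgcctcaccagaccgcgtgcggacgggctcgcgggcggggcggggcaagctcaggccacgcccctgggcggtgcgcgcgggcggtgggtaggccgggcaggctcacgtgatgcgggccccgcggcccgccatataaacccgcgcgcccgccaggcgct
CHAC1, chr15:40953221-40953470, plus strand: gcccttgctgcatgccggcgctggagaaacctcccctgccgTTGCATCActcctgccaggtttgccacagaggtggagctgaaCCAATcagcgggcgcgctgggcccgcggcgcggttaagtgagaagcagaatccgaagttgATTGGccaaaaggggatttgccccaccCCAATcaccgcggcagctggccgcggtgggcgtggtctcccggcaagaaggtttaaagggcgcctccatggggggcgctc
ASNS, chr7:97872409-97872658, minus strand: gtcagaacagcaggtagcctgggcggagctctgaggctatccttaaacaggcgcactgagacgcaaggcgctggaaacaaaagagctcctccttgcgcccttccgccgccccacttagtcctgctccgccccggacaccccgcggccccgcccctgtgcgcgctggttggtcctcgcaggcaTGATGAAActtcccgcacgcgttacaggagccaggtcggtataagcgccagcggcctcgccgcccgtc
CREB5, chr7:28412268-28412517, plus strand: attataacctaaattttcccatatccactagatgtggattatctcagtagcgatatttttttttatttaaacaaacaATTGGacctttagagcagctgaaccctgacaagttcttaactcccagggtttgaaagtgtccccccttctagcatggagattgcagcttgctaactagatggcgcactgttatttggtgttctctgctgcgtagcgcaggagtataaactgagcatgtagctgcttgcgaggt
ECM2, chr9:92535991-92536240, minus strand: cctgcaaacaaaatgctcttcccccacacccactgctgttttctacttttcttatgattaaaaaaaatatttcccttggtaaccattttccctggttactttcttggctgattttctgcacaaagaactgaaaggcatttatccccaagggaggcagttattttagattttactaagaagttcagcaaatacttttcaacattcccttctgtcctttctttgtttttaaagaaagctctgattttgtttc

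HMGCS1 held CCAAT boxes 155 and 100 bases before its start, and INSIG1 held 1 at 170 bases. In CHAC1 the ATF4 element stood 209 bases before the start, with CCAAT boxes at 167, 107 and 80 bases. ASNS held its ATF4 element at 68 bases, CREB5 held a CCAAT box at 173 bases, and ECM2 held neither motif in these bases. The CREB5 start used lies well inside the deposited gene, chr7:28299321-28825894, and not at its upstream end.

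Total counts ran from 21437267 to 27183692 per library, and 17413 of 58735 genes passed the filter on low counts. Total counts did not separate the sets (22954100 ± 2710490 in replicates 1 and 2, 24800400 ± 1737960 in replicates 3 and 4, SD, n = 4 each, exact two-sided permutation p = 0.314). On a principal component of log2 levels that held 61.5% of the variance, replicates 1 and 2 lay between -72.7 and -29.3 and replicates 3 and 4 between 18.9 and 89.9. Within each pair of replicates the counts differed well beyond sampling noise, with a chi-square per degree of freedom of 11.2 or more, so no library was counted as a copy. Biological coefficient of variation, the spread between replicates that edgeR estimates, was 18.1% with the set in the fit and 32.3% with treatment alone. Urothelial keratins were abundant in every library: the 12 urothelial markers summed to 4552 to 8198 CPM (counts scaled to a common library size) in replicates 1 and 2 and 4321 to 5813 CPM in replicates 3 and 4. KRT8, a simple epithelial keratin, ranged from 943 to 2428 CPM. Most of the sum was KRT8, KRT7 and KRT19. All 12 passed the filter, but TP63 was at only 0.048 to 1.47 CPM and KRT14 at 12.9 to 28.3 CPM. Markers of other cell types were low or overlapped between sets: 9 fibroblast markers summed to 18.2 to 28.1 against 17.4 to 20.6 CPM, mostly COL1A1, and PDGFRA and LUM were at 0 in 6 libraries each. For 8 endothelial markers the sums were 3.51 to 5.86 against 4.61 to 6.18 CPM. Those of 10 leukocyte markers were 89.7 to 177 against 85.3 to 114 CPM, nearly all CD74, with TYROBP at 0 in all 8 libraries. In bulk RNA, fewer cells of a type and less RNA per cell cannot be told apart.

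A gene was called separated where its fitted log2 difference, replicates 3 and 4 minus replicates 1 and 2, reached 2-fold and where, within controls and again within treated cultures, both libraries of one set lay beyond both of the other in the same direction. By this rule 1234 genes were higher in replicates 3 and 4 (7.09% of genes tested) and 1283 were lower (7.37%), so that 14.5% of genes followed the division. In 1118 of the higher and 1093 of the lower genes all 4 libraries of one set lay beyond all 4 of the other. At 4-fold, 64 higher and 147 lower genes were left. The threshold cut through a continuous range: 535 separated genes had an absolute difference of 1 to 1.1 on the log2 scale, and 661 genes with the same order of libraries lay between 0.9 and 1. AASDH was just inside, with 25.2 to 37.1 CPM in replicates 1 and 2 and 51.5 to 70.6 CPM in replicates 3 and 4. DNTTIP2 was just outside, with 109 to 180 CPM against 268 to 349 CPM. CPM and fitted differences are scaled by TMM factors, which assume that most genes do not differ. Those factors were 0.768 and 0.888 in controls 3 and 4, 0.953 and 0.955 in treated 3 and 4, and 1.07 to 1.17 in replicates 1 and 2. With total counts as the only scaling, the median of all genes moved from -0.07 to -0.41 on the log2 scale and the split moved from 49.0% to 13.2% higher, with 436 genes higher and 2878 lower.

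The division was larger in untreated cultures. For separated genes the median absolute log2 difference was 1.47 in controls and 1.14 in treated cultures, and 1949 of the 2517 genes had the larger difference in controls. Across all genes tested, the difference in controls and the difference in treated cultures, which share no library, had a Spearman correlation of 0.774. The sets were chosen by the expression values of controls and treated cultures alike, so agreement between these differences is partly built in. Genes are not independent replicates, and this value describes the libraries only.

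**Figure D1:**
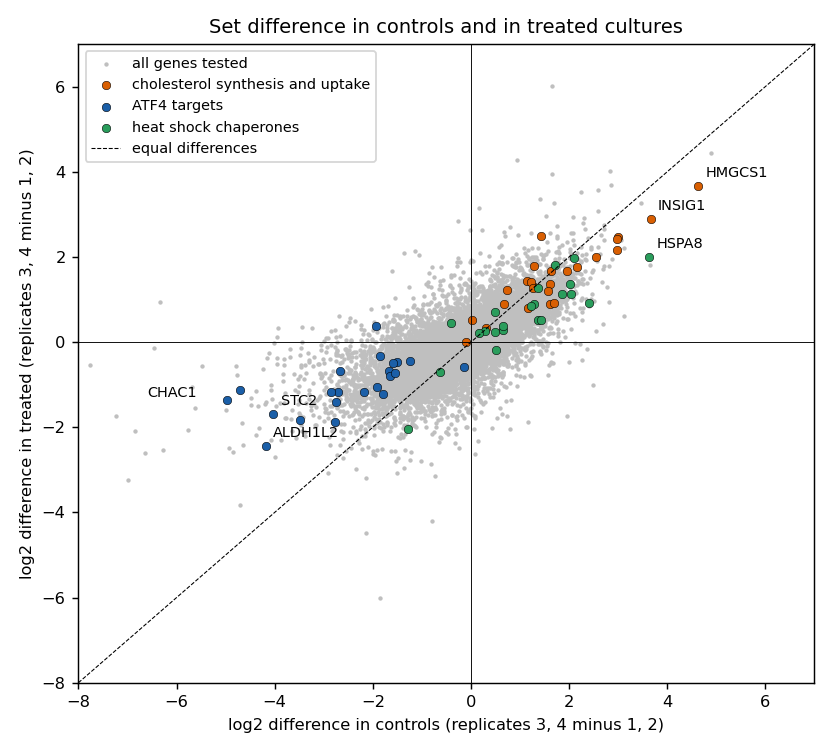
Each point is a gene, with its log2 difference (replicates 3 and 4 minus 1 and 2) in controls on the x axis and in treated cultures on the y axis; grey points are all 17413 genes tested and colours mark members of 3 gene lists. Cholesterol genes lie at the upper right, with HMGCS1 at 4.63 and 3.66, and most ATF4 targets at the lower left, above the dashed line of equal differences, with CHAC1 at -4.98 in controls and -1.37 in treated cultures.

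Cholesterol synthesis and uptake was the list furthest toward replicates 3 and 4. Of 25 genes, all tested, 19 were separated higher and none lower, and the median log2 difference was 1.38 against -0.07 for all genes tested. HMGCS1 (ENSG00000112972, chr5:43289395-43313512 on GRCh38), which makes HMG-CoA for the mevalonate pathway, had the largest difference of any separated protein-coding gene at or above 5 CPM. It measured 32.9 and 29.1 CPM in controls 1 and 2, 25.7 and 25.6 in treated 1 and 2, 859 and 674 in controls 3 and 4, and 310 and 338 in treated 3 and 4. The sets did not overlap, and within replicates 3 and 4 the controls stood above the treated cultures. The fitted difference was 4.14 ± 0.22 (log2, SE, n = 4 libraries a set), or 17.7-fold.

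INSIG1, whose protein is a brake that holds SREBP in the endoplasmic reticulum, measured 30.5, 33.9, 26.02 and 24.4 CPM in controls 1 and 2 and treated 1 and 2. In controls 3 and 4 and treated 3 and 4 it measured 460, 358, 162 and 213 CPM. IDI1, which interconverts the isoprene units, measured 112 and 127 CPM in controls 1 and 2 and 108 and 59.7 CPM in treated 1 and 2. It measured 1096 and 817 CPM in controls 3 and 4 and 442 and 480 CPM in treated 3 and 4. Every library of replicates 3 and 4 was above every library of replicates 1 and 2 for both genes, with differences of 3.28 ± 0.20 and 2.73 ± 0.22.

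Other steps of the pathway followed the same order. MSMO1, a sterol methyl oxidase, had a log2 difference of 2.58 ± 0.19, and FDFT1, which makes squalene, 2.27. SQLE, the squalene epoxidase, had 1.96. LSS, which closes the sterol rings, had 1.66, and DHCR7, a late reductase, 1.54. Members that were not separated included PMVK, TM7SF2, EBP, NSDHL and SREBF2, between -0.05 and 0.98. SREBF2, which encodes SREBP2, overlapped between the sets with 93.5 to 130 CPM in replicates 1 and 2 and 126 to 146 CPM in replicates 3 and 4. For this list the median was 1.56 in controls and 1.41 in treated cultures, and 13 members stayed separated higher under total-count scaling, with a median of 1.03.

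Of 16 genes of fatty acid synthesis and desaturation, 7 were separated higher and 1 lower, with a median of 0.53. The higher ones were the desaturases SCD (1.29 ± 0.17) and FADS2 (1.23), the elongases ELOVL5 and ELOVL6, and the acyl-CoA synthetases ACSL1, ACSL3 and ACSL4. SCD measured 105 to 161 CPM in replicates 1 and 2 and 292 to 366 CPM in replicates 3 and 4. FASN, the fatty acid synthase, was not separated (0.62), nor were ACACA, the first committed enzyme (0.08), and SREBF1, the gene of the lipogenic SREBP1 (-0.38). MLXIPL, a carbohydrate-responsive factor, was the 1 lower member at -1.03. Cytosolic IDH1, which makes NADPH, is in no list and was among the 12 largest higher genes, with 33.2 to 79.5 CPM in replicates 1 and 2 and 210 to 532 CPM in replicates 3 and 4 (2.69 ± 0.16).

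Targets of ATF4 lay at the other end. Of 22 genes, all tested, 18 were separated lower in replicates 3 and 4, none higher, and all 22 had a negative difference, with a median of -1.57. CHAC1 (ENSG00000128965, chr15:40952962-40956519), which breaks down glutathione, measured 75.4 and 81.4 CPM in controls 1 and 2 and 78.4 and 87.2 CPM in treated 1 and 2. It measured 2.77 and 2.21 CPM in controls 3 and 4 and 35.7 and 28.4 CPM in treated 3 and 4. The 2 untreated libraries of replicates 3 and 4 stood far below the other 6, and the fitted difference over all libraries was -2.95 ± 0.50.

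STC2, a secreted glycoprotein, showed that order at a high level. It measured 1101 and 1167 CPM in controls 1 and 2, 1197 and 1478 in treated 1 and 2, 61.1 and 78.1 in controls 3 and 4, and 456 and 368 in treated 3 and 4 (-2.86 ± 0.37). ALDH1L2, a mitochondrial folate enzyme, measured 20.8 to 55.3 CPM in replicates 1 and 2 and 1.16 to 8.52 CPM in replicates 3 and 4 (-3.14 ± 0.28). ASNS, the asparagine synthetase, was at 22.3 and 29.4 CPM in controls 1 and 2, 28.5 and 22.9 in treated 1 and 2, 1.05 and 0.913 in controls 3 and 4, and 13.5 and 10.1 in treated 3 and 4. For each of these genes the lowest library of replicates 1 and 2 was above the highest of replicates 3 and 4.

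Serine synthesis followed: PSAT1, PSPH and PHGDH had log2 differences of -2.07, -1.48 and -1.21. So did SHMT2 at -1.68, which passes serine carbon to folate, and PYCR1 at -1.51, which makes proline. TRIB3, a pseudokinase induced by ATF4, measured 260 to 371 CPM in replicates 1 and 2 and 43.2 to 157 CPM in replicates 3 and 4 (-1.94). The 4 members not separated were MTHFD2 (-0.99), ATF4 itself (-0.84), DDIT3, which encodes the factor CHOP (-0.74), and CTH, of cysteine synthesis (-0.36). ATF4 transcript still stood apart, at 776 to 1152 CPM in replicates 1 and 2 and 389 to 673 CPM in replicates 3 and 4, below the 2-fold rule. The list median was -2.05 in controls and -1.08 in treated cultures.

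Amino acid transporters divided. Of 16, 8 were separated lower and 3 higher, with a median of -0.97. The lower ones held SLC7A11, the cystine importer, at 92.6 to 168 CPM in replicates 1 and 2 and 7.40 to 86.0 CPM in replicates 3 and 4 (-2.30 ± 0.35). SLC1A5, a glutamine carrier, had -2.05, SLC7A5 and SLC3A2, which pair as the large neutral amino acid carrier, -1.44 and -1.45, and SLC6A9, a glycine carrier, -2.11. The 3 higher ones were the glutamate carriers SLC1A3 (1.65), SLC1A1 (1.45) and SLC1A6 (1.02). SLC1A3 measured 5.43 to 12.5 CPM in replicates 1 and 2 and 16.0 to 36.1 CPM in replicates 3 and 4.

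Among 20 cytosolic aminoacyl-tRNA synthetases, 6 were separated lower and 1 higher, with a median of -0.09, near that of all genes. GARS, AARS, YARS, WARS, MARS and CARS, which charge glycine, alanine, tyrosine, tryptophan, methionine and cysteine, had differences of -1.90 to -1.17. RARS, which charges arginine, had 1.69 ± 0.19, with 190 to 244 CPM in replicates 1 and 2 and 582 to 995 CPM in replicates 3 and 4. The list thus held separated members in both directions.

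**Figure D2:**
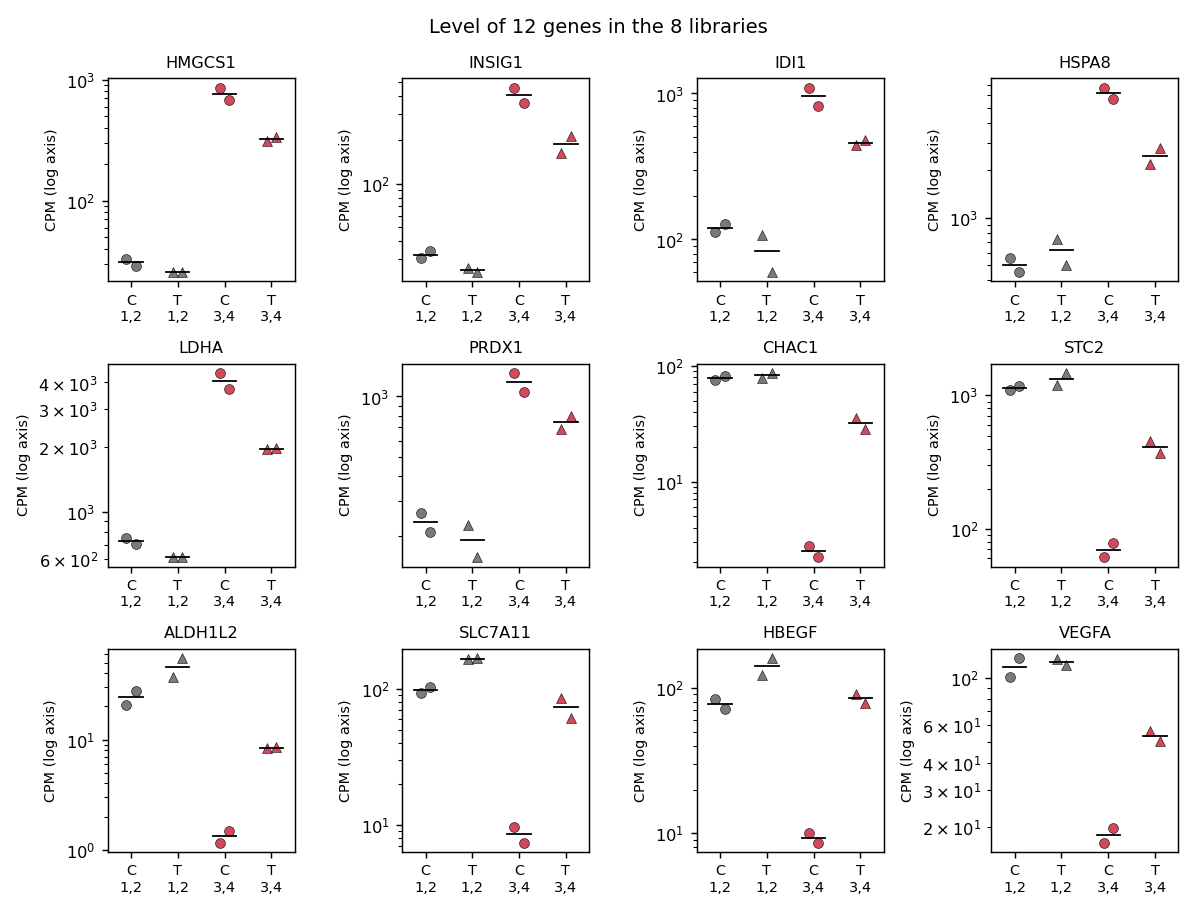
Level of 12 genes in CPM on a log axis in each of the 8 libraries; circles are controls (C) and triangles treated cultures (T), grey for replicates 1 and 2 and red for replicates 3 and 4, and short lines are means of 2 libraries. HMGCS1, INSIG1, IDI1, HSPA8, LDHA and PRDX1 are higher in replicates 3 and 4; CHAC1, STC2, ALDH1L2, SLC7A11 and VEGFA are lower in both treatments, while treated replicates 3 and 4 of HBEGF lie at the level of controls 1 and 2.

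The heat shock list held more higher than lower genes: of 22 tested, 10 were separated higher and 1 lower, with a median of 0.96. HSPA8, the constitutive HSP70, measured 552 and 450 CPM in controls 1 and 2, 735 and 502 in treated 1 and 2, 6726 and 5697 in controls 3 and 4, and 2183 and 2760 in treated 3 and 4. The sets did not overlap, and the difference was 2.81 ± 0.31. HSP90AA1, the inducible cytosolic HSP90, was at 1081 to 3279 CPM in replicates 1 and 2 and 5357 to 10351 CPM in replicates 3 and 4 (1.76 ± 0.25). HSPE1 (2.04) and HSPD1 (1.08), the mitochondrial chaperonin pair, and the co-chaperone DNAJA1 (1.69) were also separated higher. The inducible HSP70 genes HSPA1A and HSPA1B had 1.57 and 1.64 at 2.72 to 22.3 CPM. DNAJB1 (0.19), BAG3 (0.16) and the gene of the factor HSF1 (-0.67), which belong to the same response, were not separated. CRYAB, a small heat shock protein, was lower (-1.70) at under 4 CPM in every library. HSPA8, HSPE1, HSP90AA1 and the HSPA1 pair have near-identical copies or pseudogenes, so how reads were shared among them is uncertain. Under total-count scaling 6 members were separated higher and 2 lower, with a median of 0.61.

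Ribosomal and respiratory chain genes that were separated were all higher in replicates 3 and 4. Of 44 cytosolic ribosomal protein genes, 13 were separated higher and none lower (median 0.81); RPL24 measured 314 to 702 CPM in replicates 1 and 2 and 985 to 1851 CPM in replicates 3 and 4. Of 34 nuclear-encoded respiratory chain genes, 14 were higher and none lower (median 0.93), among them UQCRC2 of complex III (1.47) and NDUFB8 and NDUFA9 of complex I (1.62 and 1.53). Of 13 mitochondrially encoded genes only MT-CO3 was separated, a share near that of all genes (1.09 ± 0.22, 1413 to 2461 CPM against 3492 to 4742 CPM); the list's median was 1.14 in controls and -0.01 in treated cultures. Total-count scaling left 2 ribosomal and 5 respiratory genes higher and 1 respiratory gene lower. Ribosomal protein genes have many processed pseudogenes, which makes their counts uncertain. Abundant genes in general leaned the same way: in the most abundant 10% of protein-coding genes 21.2% were higher and 2.82% lower. Whether level accounts for the lean of these lists was not tested.

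Genes of G2 and mitosis had 11 of 30 members separated higher and none lower (median 0.83). ANLN, a cytokinesis scaffold, measured 291 to 402 CPM in replicates 1 and 2 and 957 to 2039 CPM in replicates 3 and 4 (1.96 ± 0.22). TOP2A, which untangles DNA, had 1.57 and CCNB1, the mitotic cyclin, 1.08. MKI67, the proliferation antigen, was not separated (-0.40, 139 to 374 CPM against 117 to 213 CPM), nor were PLK1 (0.01) and AURKB (-0.36). Of 30 S phase genes 3 were higher and none lower with a median near that of all genes; PCNA, the replication clamp, had 1.37 and RRM1, of nucleotide synthesis, 1.66. Under total-count scaling 4 mitotic genes were higher and 1 lower.

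Glycolysis, hypoxia and NRF2 lists leaned the same way with fewer members. Of 19 glycolytic genes 6 were higher and none lower (median 0.25). LDHA, which makes lactate, measured 752 and 706 CPM in controls 1 and 2, 612 and 615 in treated 1 and 2, 4438 and 3713 in controls 3 and 4, and 1956 and 1982 in treated 3 and 4 (2.08 ± 0.22). The early enzymes HK1, HK2, PFKL and PFKP were not separated (-0.31 to 0.02). Of 23 hypoxia genes 7 were higher, led by the prolyl hydroxylase subunit P4HA1 (1.61), and 1 was lower. That 1 was VEGFA, the endothelial growth factor, at 101 to 124 CPM in replicates 1 and 2 and 16.9 to 56.7 CPM in replicates 3 and 4 (-1.87 ± 0.24).

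Of 27 NRF2 targets 7 were higher and 2 lower (median 0.33). The peroxidase PRDX1 measured 157 to 262 CPM in replicates 1 and 2 and 689 to 1314 CPM in replicates 3 and 4 (2.14 ± 0.19). Its partner TXN had 1.35 and the quinone reductase NQO1 1.00. HMOX1 (12.7 to 25.8 CPM over the 8 libraries), TXNRD1 (0.16) and GCLM (0.53), classical targets of the same factor, were not separated. With total-count scaling the medians of the NRF2, glycolysis, BMP, collagen, Wnt, mesenchymal, serum response and unfolded protein lists lay between -0.32 and -0.01, so their sign rests on the scaling. Each still lay above the median of all genes tested, which was -0.41 under that scaling. PRDX1, TXN, LDHA, PGK1 and the AKR1C genes share sequence with copies or pseudogenes.

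Most signalling and immune lists leaned toward replicates 1 and 2. Of 24 immediate early genes 6 were separated lower and none higher (median -0.48). EGR1, a growth factor-induced factor, measured 45.5 to 124 CPM in replicates 1 and 2 and 6.09 to 37.8 CPM in replicates 3 and 4 (-2.03 ± 0.26); FOS (0.16) and JUN (-0.39) were not separated. Among 16 MAPK feedback genes 4 were lower and none higher, led by PHLDA1 (-2.06), and of 12 EGFR ligands and receptors 3 were lower: HBEGF (-1.84), ERRFI1 (-1.68) and EREG (-1.17). Of 30 interferon-stimulated genes 6 were lower and none higher (median -0.39). MX1, an antiviral GTPase, was at 326 to 526 CPM in replicates 1 and 2 and 71.8 to 233 CPM in replicates 3 and 4 (-1.50), while IFI44 had 0.90 and IFIT1 0.11.

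Of 24 NF-kB targets and cytokines 3 were lower: the subunits RELB (-1.29) and NFKB2 (-1.24), and the adhesion molecule ICAM1 (-1.04). None was higher. The list's median was -0.07, near that of all genes tested, but -0.98 in controls and 0.44 in treated cultures. CXCL8, the neutrophil chemokine, shows this: 1059 and 715 CPM in controls 1 and 2, 346 and 237 in controls 3 and 4, 866 and 418 in treated 1 and 2, and 2525 and 1586 in treated 3 and 4. Replicates 3 and 4 were the lower set without glucose oxidase and the higher set with it.

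Urothelial and matrix lists mostly held few separated genes, beside 7.09% higher and 7.37% lower over all genes tested. Furthest above these shares were BMP genes (25% higher) and basal and squamous genes (19.0% lower). Of 21 basal and squamous genes 4 were lower, among them LAMB3, a laminin chain of the basement membrane (636 to 1289 CPM against 153 to 556 CPM, -1.54), and KRT17 (-1.26). S100A7 was higher (1.21), at only 0.844 to 4.23 CPM over the 8 libraries. Of 16 luminal genes UPK1B, a uroplakin of the apical membrane, was higher (54.1 to 63.5 CPM against 104 to 187 CPM, 1.22) and XBP1 was lower (-1.18). None of 16 tight junction or 15 Notch genes was separated, and 1 of 17 mesenchymal genes (FSTL1), 1 of 16 TGF-beta genes (TGFBR2) and 1 of 19 collagens and elastic matrix genes (lower) were. Of 17 YAP and TEAD targets NT5E was higher (1.25), and GADD45A (-1.80) and AMOTL2 (-1.02) were lower. Of 12 BMP genes ID2 (1.64), BMP4 (1.24) and BMPR1A (1.09) were higher, with BMP4 at only 0.442 to 2.38 CPM over the 8 libraries.

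Other lists held few separated genes in number, though in several the share was above that of all genes tested (7.09% higher, 7.37% lower). It was above for p53 targets (16.7% lower), circadian genes (17.6% lower) and histone genes (20% higher), among others. It was below for serum response (5% lower), antigen presentation (5.26% higher) and matrix protease genes (5.88% higher). Of 17 circadian genes 3 were lower, NR1D1 (-1.42), PER2 (-1.24) and CIART (-1.02), and the list's median was -0.61. Of 24 p53 targets 2 were higher and 4 lower, with GDF15, a stress cytokine that ATF4 also induces, lowest (232 to 421 CPM against 20.1 to 199 CPM, -2.25 ± 0.36). Of 24 genes of the unfolded protein response 2 were higher, SEC61B (1.26) and HSP90B1 (1.08), and 2 were lower, ERN1 (-1.34) and XBP1. Of 25 lysosome and autophagy genes 3 were higher, with the galactosidase GLA first (2.00), and 2 lower, ULK1 (-1.60) and TFEB (-1.38). Of 14 Wnt genes LGR4 and SFRP1 were higher and 1 was lower, and of 6 glucose-responsive MondoA targets ARRDC3 was higher (1.23) and KLF10 (-1.27) and ARRDC4 (-1.17) were lower. Of 11 glucocorticoid genes ERRFI1 and TSC22D3 (-1.31) were lower, and of 20 serum response and actin genes ACTA2 was (-1.12). Of 19 antigen presentation genes the peptide trimmer ERAP2 was higher (1.07), and of 17 matrix proteases and inhibitors MMP13 was (1.38, under 2 CPM in every library). Of 3 metallothioneins tested 2 were higher, MT1X (1.74) and MT1F (1.12), and of 15 histone genes 3 were higher and none lower.

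**Figure D3:**
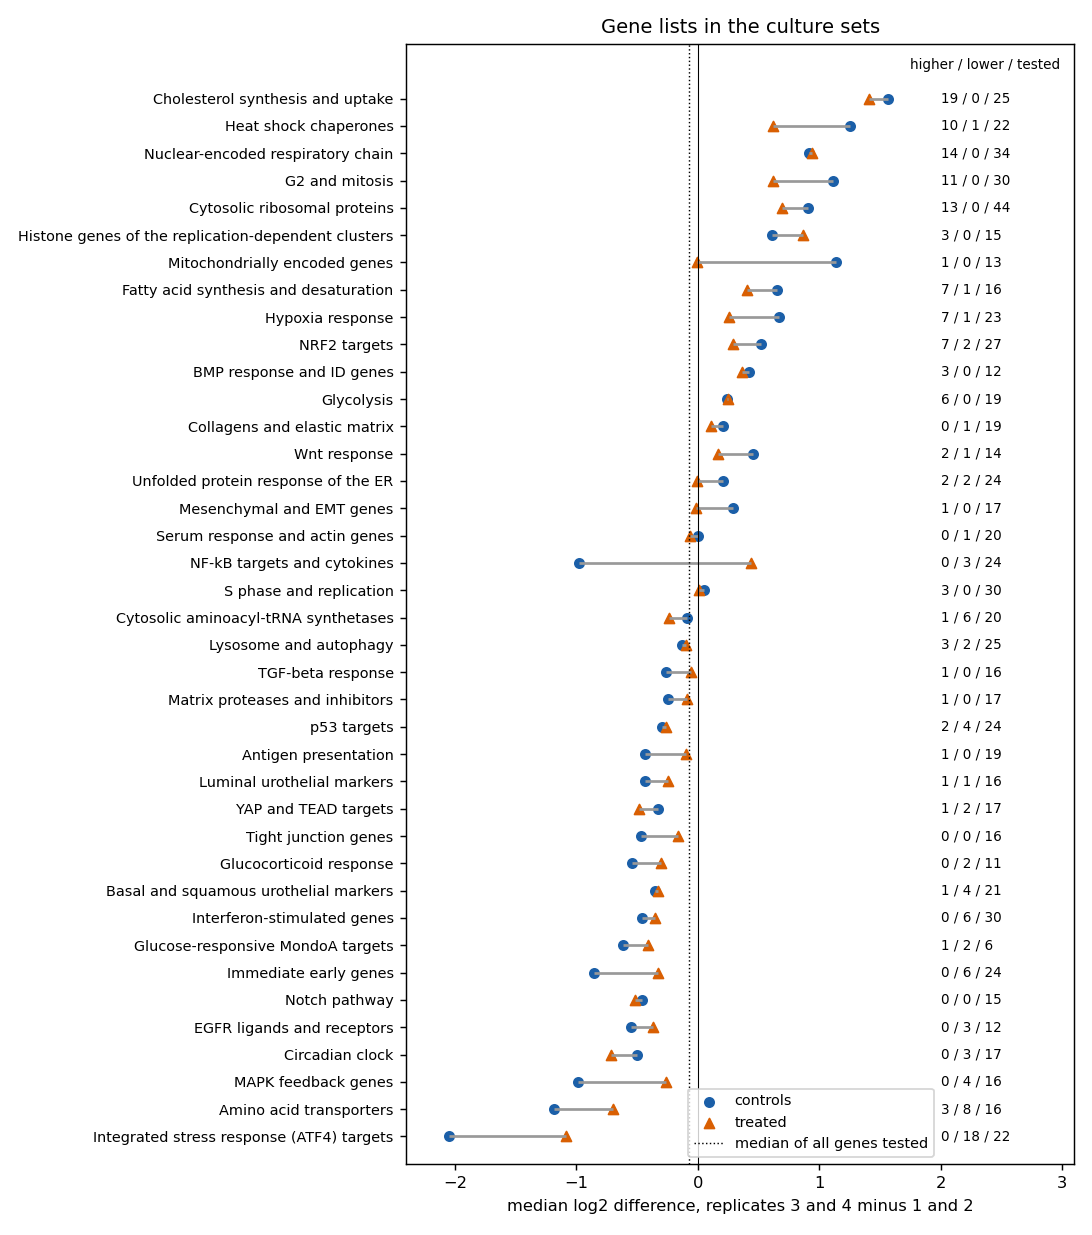
Median log2 difference (replicates 3 and 4 minus 1 and 2) of each gene list with 5 or more tested members, in controls (blue circles) and in treated cultures (orange triangles); numbers at the right are members separated higher, separated lower and tested, and the dotted line is the median of all genes tested, -0.07. Cholesterol synthesis and uptake is at the top with 19 of 25 higher and the ATF4 targets at the bottom with 18 of 22 lower.

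Most of the other largest differences belong to no list. Among higher genes, MAP2K6, a kinase of the p38 pathway, measured 1.53 to 6.37 CPM in replicates 1 and 2 and 20.7 to 47.8 CPM in replicates 3 and 4 (3.22 ± 0.19). ZBED2, a zinc finger factor, had 2.72, the lysosomal protease CTSV 2.55, and ASB9 2.33. LGR4, a receptor of the Wnt list that strengthens Wnt signals, had 2.35. Among lower genes, CREB5, a CREB family factor, measured 10.1 to 16.4 CPM in replicates 1 and 2 and 0.387 to 3.51 CPM in replicates 3 and 4 (-3.18 ± 0.31).

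ECM2, a matrix protein gene, was at 38.9 to 74.1 CPM in replicates 1 and 2, 1.05 and 1.01 CPM in controls 3 and 4, and 19.0 and 19.4 in treated 3 and 4 (-3.14). KLHDC7B had -3.13 and ADM2, a peptide hormone of the calcitonin family, -3.00. G0S2, an inhibitor of lipid breakdown, had -2.87, KIF21B, a kinesin, -2.78, and ANGPT4, an angiopoietin, -2.62. INHBE, an inhibin chain, had 1 count each in controls 3 and 4, against 177 and 173 counts in controls 1 and 2, 598 and 433 in treated 1 and 2, and 50 and 48 in treated 3 and 4. CALCB, the second calcitonin gene-related peptide, had 4 counts in each of controls 3 and 4 against 286 and 270 in controls 1 and 2. At such counts a fold within controls is poorly fixed.

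The separated protein-coding genes differed in base composition, a property the rule did not use. Median transcript GC content was 42.4% for those higher, 55.2% for those lower and 48.8% for all, and across 13797 genes the set difference had a Spearman correlation of -0.424 with GC content. In the 10% of genes lowest in GC, 15.1% were higher and 0.870% lower; in the highest 10% of genes 1.23% were higher and 8.84% lower. With level the correlation was 0.299: in the most abundant 10% of genes 21.2% were higher and 2.82% lower, and in the least abundant 5.58% and 17.5%. With gene length it was -0.136. Whole libraries had a count-weighted GC content of 48.7% ± 0.210 (replicates 1 and 2) against 47.0% ± 0.331 (replicates 3 and 4; SD, n = 4), with no overlap. The 10 most abundant genes took 4.63% ± 0.163 and 6.80% ± 0.735 of counts, and genes with a count numbered 30166 ± 739 and 26445 ± 1434. Other planned measures overlapped between the sets. Mitochondrially encoded genes took 2.24% ± 0.837 and 2.97% ± 0.126 of counts, and genes that are not protein-coding 3.01% ± 0.129 and 2.82% ± 0.123. The ratio of counts in long to short protein-coding genes was 0.980 ± 0.115 and 0.867 ± 0.057.

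After a trend with GC content was removed, 864 genes were separated higher and 1159 lower. The median of the cholesterol list was then 1.55 and that of the ATF4 list -1.41. For heat shock it was 0.73, for G2 and mitosis 0.64, for ribosomal proteins 0.76 and for the respiratory chain 0.88. None of these 6 lists changed sign. Chromosomes of unlike GC content differed: on chromosome 4 (median GC 42.1%) 14.2% of protein-coding genes were higher and 3.25% lower, and on chromosome 19 (58.7%) 2.35% and 8.85%.

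**Figure D4:**
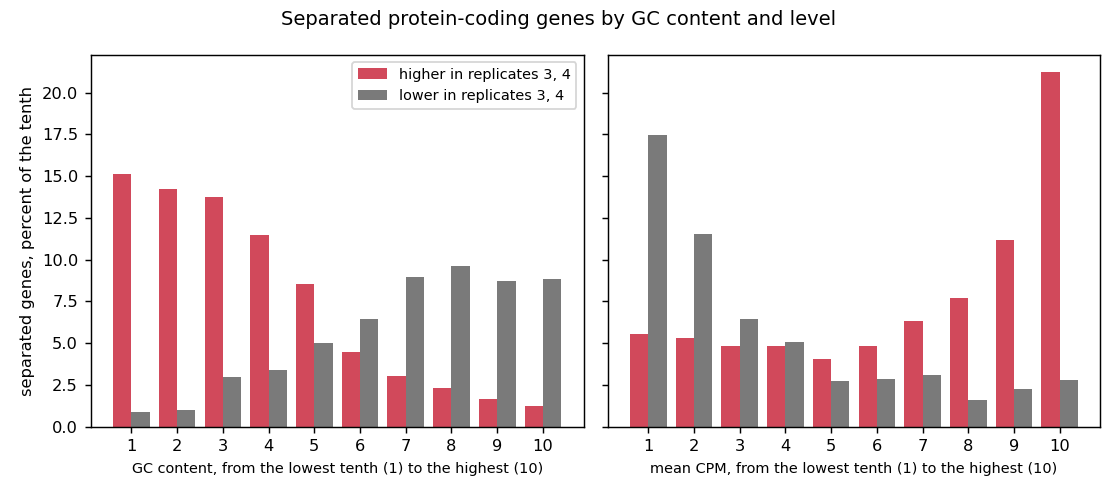
Share of protein-coding genes separated higher (red) and lower (grey) in replicates 3 and 4, in percent of 10 bins of equal size, by GC content of the transcript (left) and by mean CPM (right). The higher share falls from 15.1% to 1.23% as GC content rises, and climbs to 21.2% in the most abundant bin.

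Promoter motifs were counted in the 300 bases from 250 before to 50 after the start, on both strands, in 11480 tested genes that the RefSeq table holds. The ATF4 element TGATGNAA was in 5.54% of 632 promoters of lower genes, 2.13% of 891 promoters of higher genes and 1.62% of all. In the ATF4 list it was in 3 of 17 promoters, those of CHAC1, ASNS and ATF3. CCAAT, searched after the data were seen, was in 43.2% of promoters of higher genes, 32.1% of lower and 36.0% of all, and in 15 of 18 of the cholesterol list and 12 of 17 of the ATF4 list. The sterol element TCACNCCAC, also added, was in 1.11% of all promoters and in 1 of 18 of the cholesterol list, that of SREBF2. AP-1 (TGANTCA) was in 6.06%, 5.85% and 4.85% of higher, lower and all promoters, and TEAD (GGAATG) in 12.01%, 10.9% and 10.9%. For the hypoxia element ACGTG, which every E-box CACGTG also holds, the shares were 28.5%, 23.4% and 26.1%. The antioxidant element TGACNNNGC had 15.9%, 14.2% and 15.2%. A match is a description of letters, not of binding.

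The change with glucose oxidase was compared between the sets as the product of treatment and set in edgeR's quasi-likelihood fit over all 8 libraries. The sets were chosen by the same expression values, and with them in the fit the residual spread is the smaller one given above, so the p-values of this fit are not free of that choice. None is given for a gene, and the calls are a description. At a Benjamini-Hochberg adjusted p below 0.05 in edgeR the fit picked out 37 genes whose change was more positive in replicates 3 and 4 (0.212% of 17413) and 3 whose change was more negative (0.0172%). All 37 were lower in controls 3 and 4 than in controls 1 and 2, and 25 of them were separated lower. This order is partly built in, since low values in controls 3 and 4 themselves make the change in that set more positive. The 37 genes held 7 of 22 ATF4 targets, 6 of 24 NF-kB targets and cytokines, and 3 of 16 amino acid transporters.

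For CHAC1, whose values are given above, the log2 difference of treated minus control was 0.08 for replicates 1 and 2 but 3.69 for replicates 3 and 4, which differ by 3.61 ± 0.29 (SE). For ASNS the values were -0.01 and 3.58 (difference 3.59 ± 0.37) and for ECM2 0.15 and 4.22 (4.07 ± 0.41). In treated 3 and 4 these genes stood nearer to replicates 1 and 2 and still below them. The difference was 3.75 for INHBE, 3.70 for CALCB and 3.73 for AC009093.4, a transcript with 3 and 1 counts in controls 3 and 4.

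Several cytokine genes were at or above the level of treated 1 and 2 in treated 3 and 4. IL1A, an alarmin, measured 44.4 and 61.1 CPM in controls 1 and 2, 5.31 and 5.91 in controls 3 and 4, 133 and 103 in treated 1 and 2, and 173 and 127 in treated 3 and 4 (difference between the sets 3.57). Its treated libraries overlapped between the sets. The same difference was 3.28 for CXCL8, 3.28 for CCL20 and 1.99 for CXCL1, whose treated libraries of replicates 3 and 4 lay above those of replicates 1 and 2. For IL6 it was 1.66, with 38.9 and 33.7 CPM in treated 1 and 2 and 36.8 and 27.96 CPM in treated 3 and 4, which overlap. These cytokines lie outside the naming rule and were chosen after their values were seen.

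More negative were NDRG1, a hypoxia-induced gene, and PLIN2, a lipid droplet coat protein. NDRG1 measured 12.1 to 15.8 CPM in all of replicates 1 and 2, 47.7 and 47.6 CPM in controls 3 and 4, and 15.9 and 16.5 in treated 3 and 4 (-1.56 ± 0.28). PLIN2 measured 51.6 to 58.3 CPM in replicates 1 and 2, 299 and 226 CPM in controls 3 and 4, and 96.3 and 100.5 in treated 3 and 4 (-1.49 ± 0.28). The third was the pseudogene BX276092.2 at 0.472 to 3.88 CPM (-3.70), named after its values were seen. The counts of calls moved with single libraries. Without treated replicate 3 they were 9 and 0, without control replicate 1 19 and 0, and without treated replicate 1 69 and 4. Leaving out control replicate 3 gave 18 and 2, and leaving out control replicate 4 or treated replicate 4 gave 18 and 0.

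**Figure D5:**
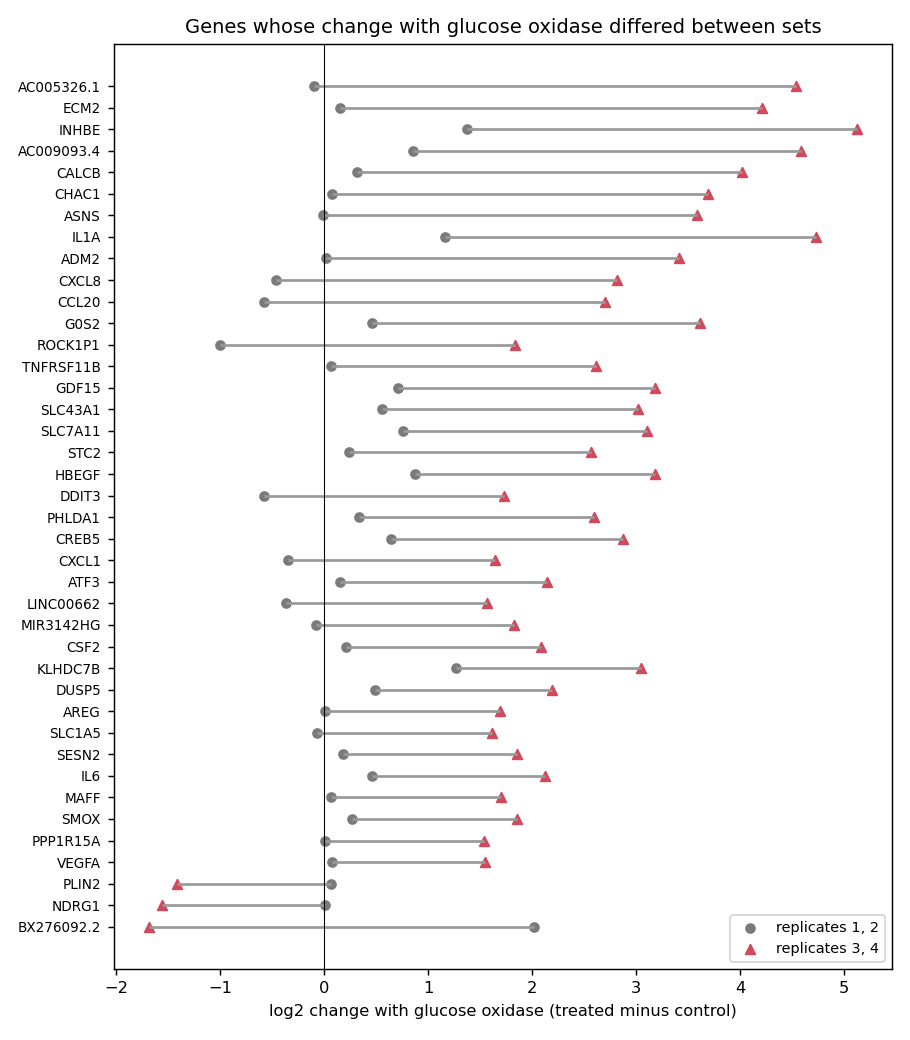
Log2 change with glucose oxidase (treated minus control) of the 40 genes whose change differed between the sets, in replicates 1 and 2 (grey circles) and in replicates 3 and 4 (red triangles), each from 2 controls and 2 treated libraries. The 37 upper genes have the larger change in replicates 3 and 4, with CHAC1 at 0.08 and 3.69, and PLIN2, NDRG1 and BX276092.2 at the bottom have the lower one.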

How the data were processed

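Reads of 8 libraries were processed by the authors with HISAT2 2.0.5, featureCounts 1.5.0-p3 and DESeq2 1.20.0 on GRCh38.p13, per the submitters' processing notes, and the sources used here do not give strand handling, so antisense and overlapping genes may share reads. The deposited counts are whole reads per gene, not normalised. A gene length in bases (another unit) stands in the deposited table. Groups, 4 controls and 4 treated, come from the labels, and the sets were seen in the expression values. Members and the 43 gene lists were chosen with earlier results of these data known, and lists therefore support nothing independently.

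Counts were fitted with edgeR 4.0.16 (R 4.3.3, TMM, filterByExpr, quasi-likelihood) with treatment and set as terms, and their product for the change with glucose oxidase. For that product no p-value of a gene is given, since the sets were chosen by these values. The calls rest on the spread between libraries said to come from independent experiments. Tables, promoters and plots used Python 3 packages. The 5 library measures that had a planned permutation test are shares of the same expression values, so they are described with no p-value. Named genes were the 12 largest separated protein-coding genes in each direction at a mean of 5 CPM or more, up to 3 separated members a list and direction at 1 CPM or more, and the 6 largest called response differences a direction at 5 CPM or more; other names were chosen for their known role or after their values were seen. Of 126 genes named by rule, 94 had a RefSeq promoter. Alternatives were DESeq2 1.42.0, other scalings, filters and folds, GC and length trends, and libraries left out. GC trends and single libraries left out were chosen after seeing the data. The deposited FPKM values and the authors' comparison table were not used here. Some members of the lists are counted but not reported here by name.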

Additional observations from a re-analysis of the deposited data

Results flagged for a closer look

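Total counts of replicates 1 and 2 held 1 library far from the other 3: treated replicate 1 had 27016035 counts against 21437267 to 21709190, and its gap was 0.951 of the range. Of 64 such checks 1 gave a gap this large, and chance gives about 1 in 20. The remaining results here are changes with glucose oxidase picked out by edgeR's fit as different between the sets, given as the change in replicates 3 and 4 minus that in replicates 1 and 2 on the log2 scale. ECM2 had 4.07, INHBE 3.75, AC009093.4 3.73, CALCB 3.70, CHAC1 3.61 and ASNS 3.59. NDRG1 had -1.56 and PLIN2 -1.49. Of the first 6, every one had controls 3 and 4 below controls 1 and 2, an order that is partly built into this difference. The sets were chosen by the same values, so no p-value is given. The calls moved when single libraries were left out, and the part that depth and GC content have in these differences was not tested.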

How the results depend on the processing

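Fitted differences kept their sign for the 6 leading lists and all 126 named genes under every alternative that could be fitted. List medians stayed within the replicate spread in 597 of 860 recalculations, named genes in 1952 of 2512. The medians of the serum response, NF-kB, unfolded protein, mesenchymal, S phase, collagen, glycolysis, NRF2, BMP, Wnt, mitochondrially encoded, fibroblast, endothelial and leukocyte lists changed sign under at least 1 alternative. Counts of separated genes (higher, lower) were 2946 and 2871 at 1.5-fold, 64 and 147 at 4-fold, and 436 and 2878 with total counts as scaling. Without the low-count filter 2307 were lower, and in treated cultures alone 714 were lower. Without 1 replicate number at a time the counts ran from 1030 to 1954 higher and from 1111 to 1858 lower; with replicate 1 left out, 1954 and 1572. Leaving out single libraries gave 1073 to 1697 higher and 1209 to 1700 lower. Response calls (more positive, more negative) were 33 and 1 with DESeq2 size factors, 38 and 0 with total counts, 108 and 19 without the filter, and 90 and 14 with DESeq2. Without 1 replicate number they ran from 9 to 210 and from 0 to 69, and without 1 library from 9 to 69 and from 0 to 5. Named response genes kept their call in 100 of 136 recalculations and lost it in 36. With the replicate number as a block, response calls were 128 and 29. Equal numbers were not shown to pair libraries in both sets. The correlation across genes of control 1 minus control 2 with treated 1 minus treated 2 was 0.292, above the minimum of 0.1 set for pairing. That for replicates 3 and 4 was -0.04, below the minimum. The cause of these shifts was not tested. Depth limits INHBE, CALCB and AC009093.4, with 1 to 4 counts in controls 3 and 4.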

Other observations

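These groups of genes were formed after the data were seen, and a few members also stand in a list. Their counts stand beside 7.09% separated higher and 7.37% lower over all genes tested. Of 55 proteasome subunit genes and pseudogenes 17 were separated higher and 1 lower, with a median log2 difference of 0.70 (0.36 under total-count scaling); PSMA3, of the core ring, measured 154 to 456 CPM in replicates 1 and 2 and 534 to 926 CPM in replicates 3 and 4. Of 83 mitochondrial ribosomal protein genes and pseudogenes 10 were higher and 1 lower (median 0.49). Of 14 KLF factors 4 were lower and none higher (median -0.72), with KLF10 at -1.27 and KLF4 at -1.07. Of 10 HMGB genes and pseudogenes 6 were higher and none lower; their counts are uncertain, since the copies share sequence.

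Genes that are not protein-coding, pseudogenes among them, leaned toward replicates 1 and 2. Of 3609 tested, 5.18% were separated higher and 14.2% lower, against 7.58% and 5.59% of protein-coding genes. Processed pseudogenes did not share this lean: of 459 tested, 55 were higher and 47 lower, with a median log2 difference of 0.20. The least abundant 10% of protein-coding genes had a similar lean, with 5.58% higher and 17.5% lower. Whether low level accounts for the lean of genes that are not protein-coding was not tested. Among 139 sense-intronic transcripts 39 were lower and 1 higher, and among 1153 antisense transcripts 168 were lower and 47 higher. Reads of such transcripts and of their host genes cannot be told apart here. NEAT1, the paraspeckle RNA, measured 747 to 1245 CPM in replicates 1 and 2 and 293 to 516 CPM in replicates 3 and 4. UCA1, a long non-coding RNA first described in bladder cancer, was at 70.4 to 151 CPM against 231 to 507 CPM (1.74), and LINC02474 at 4.30 to 8.61 CPM against 18.5 to 42.6 CPM (2.32).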
